A study of Mus musculus with 4 samples.

Results

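The genes described here encode the proteins of the cytosolic ribosome. They were taken from the GENCODE vM1 annotation of NCBIM37, the assembly equivalent to mm9, as autosomal protein-coding genes with more than 1 exon whose symbol starts with Rpl (large subunit) or Rps (small subunit) and a number, leaving out kinases (Rps6k) and pseudogenes (symbols with -ps). This gave 75 members of 18669 autosomal multi-exon protein-coding genes, 44 of them Rpl and 31 Rps. The rule reads names and annotation, not measured values. The rule also took in 6 paralogues of ribosomal proteins (Rpl3l, Rpl7l1, Rpl22l1, Rpl36al, Rpl39l and Rps27l) and Rps19bp1, which encodes a binding partner of the Rps19 protein and not a ribosomal protein, so that 68 members were left without these.

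Chromatin immunoprecipitation followed by sequencing was carried out for H3K9me3 and H3K36me3, the trimethylated forms of lysines 9 and 36 of histone H3, in mouse embryonic stem (ES) cells of strain 129S1/SvImJ at fewer than 20 passages. WT cells were unmodified (H3f3a+/+; H3f3b+/+). G34R cells (H3f3a+/G34R; H3f3b+/+) carried 1 targeted H3f3a allele, from which Cre had removed a WT minigene so that a G34R minigene was expressed from the endogenous H3f3a promoter, and came from clones selected after this step. Each mark had 1 library per genotype. The authors deposited 1 list of enriched regions per mark, made over WT and G34R cells together and without read values, so the genotypes cannot be told apart in any value below, the depth is unknown, and no test between groups or replicates was possible.

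A ribosome holds 1 copy of nearly every ribosomal protein, and the genes for these proteins are short, have several introns and are transcribed at high rates in growing cells. Their messenger RNAs commonly begin with a run of pyrimidines (the 5′ terminal oligopyrimidine tract), through which translation is coupled to nutrient signalling, and many of their introns encode small nucleolar RNAs (snoRNAs), which guide modification of ribosomal RNA. H3K36me3 is placed over the bodies of transcribed genes by a methyltransferase that travels with RNA polymerase II. H3K9me3 is known from heterochromatin and silenced repeats. Ribosomal protein genes also have many processed pseudogenes, which are copies of their spliced messenger RNA, so that reads from their exons can align to several places.

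Sequences around the starts of members are shown first, since the tract is the feature of these genes that can be read directly. The starts of RefSeq (GRCm38.p6) were available for 55 members, and each window shown was found unchanged in NCBIM37 at the position given. A tract was defined as a C followed by at least 4 bases that were C or T, on the transcribed strand. Each window runs 5′ to 3′ from 15 bases before the start to 14 bases after it, so that the start is base 16, and capitals mark the tract. The 6 windows with the longest tracts among members whose tract covered the start with a C are followed by the paralogues Rpl3l and Rpl39l.
Rpl35 (chr2:38860637-38860666, minus strand): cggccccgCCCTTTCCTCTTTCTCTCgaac
Rpl15 (chr14:19103486-19103515, minus strand): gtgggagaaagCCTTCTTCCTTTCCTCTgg
Rpl14 (chr9:120480619-120480648, plus strand): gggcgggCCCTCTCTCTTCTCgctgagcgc
Rpl35a (chr16:33056553-33056582, plus strand): gcggggcttgCCTTCCTCTTTCCgccatct
Rps10 (chr17:27772175-27772204, minus strand): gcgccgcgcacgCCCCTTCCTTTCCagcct
Rps18 (chr17:34092596-34092625, minus strand): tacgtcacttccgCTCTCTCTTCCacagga
Rpl3l (chr17:24864756-24864785, plus strand): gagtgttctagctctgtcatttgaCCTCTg
Rpl39l (chr16:10170306-10170335, plus strand): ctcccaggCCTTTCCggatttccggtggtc

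The tract was 18 bases long in Rpl35 and 17 bases in Rpl15, whereas it was 7 bases long and ended before the start in Rpl39l, and was 5 bases long and began 9 bases after the start in Rpl3l. With the motif required exactly at a RefSeq start, 12 of 55 members had it (21.8%, 95% Wilson interval 12.9 to 34.4, which like all intervals here covers counting error only) against 2.77% of 12758 other genes. When the motif could begin within 10 bases of the start, the shares were 63.6% of members (35 of 55) and 36.1% of other genes. With GENCODE vM1 starts the window gave 28 of 75 members (37.3%, interval 27.3 to 48.6) beside 31.7% of 18594 other genes, and the motif lay exactly at the start in 3 members (4.00% against 2.17%). The RefSeq values cover fewer genes, and 10 of the 55 members have more than 1 RefSeq start. For the same 55 members and 12758 other genes, GENCODE starts gave 41.8% and 31.6% within the window, and 3.64% and 2.12% exactly at the start.

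H3K36me3 was found over nearly all ribosomal protein genes. A gene was counted when at least 1 bp of it lay in a region. By this rule 69 of 75 members carried H3K36me3 (92.0%, interval 83.6 to 96.3), compared with 39.8% of the 18594 other autosomal multi-exon protein-coding genes. Members were short, with a median annotated length of 3368 bp against 20089.5 bp for other genes, and short genes carried the mark less often. Other genes of the same length, weighted over 5 length classes to the lengths of the members, carried it in 27.0% of cases, and the share in members was 3.40 times as high. The ratio was 1.70 when only the other genes, and not the members, were limited to those with at least 1 of the marks, a limit that raises their share by construction.

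The difference was present in each length class. Below 2 kb, 8 of 10 members carried H3K36me3 beside 7.43% of 754 other genes. From 2 to 4 kb these were 34 of 36 members and 26.4% of 1308 other genes, and from 4 to 6 kb 19 of 20 members and 31.6% of 1386 other genes. Between 6 and 10 kb, 4 of 5 members had the mark beside 38.9% of other genes, and at 10 kb or more 4 of 4 members beside 44.1%. The classes above 6 kb held only 9 members. Genes of the large and small subunit were alike in this respect. Leaving out the paralogues and Rps19bp1, 38 of 39 Rpl genes and 28 of 29 Rps genes carried H3K36me3.

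**Figure D1:**
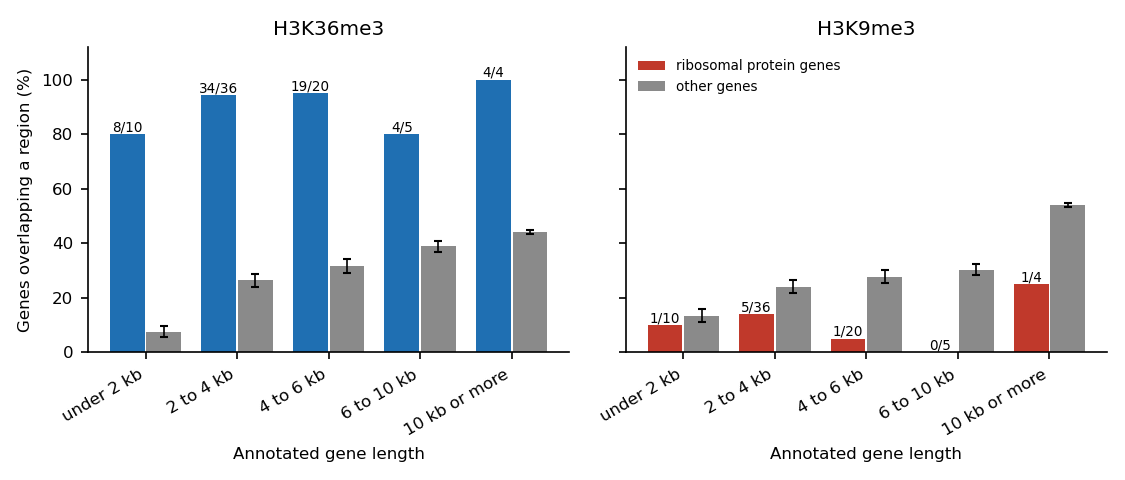
Share of genes (%) overlapping a region of H3K36me3 (left) or H3K9me3 (right) by annotated gene length. Coloured bars are ribosomal protein genes with the number of genes written above, and grey bars are other autosomal multi-exon protein-coding genes with 95% Wilson intervals. From 2 to 4 kb, 34 of 36 members carried H3K36me3 and 5 of 36 carried H3K9me3, beside 26.4% and 24.1% of other genes.

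Most members held a single broad region. Of the 69 genes with H3K36me3, 57 had 1 region, 10 had 2 and 2 had 3 or more (Rps2 with 3 and Rpl24 with 7). The 87 regions that touched members had a median width of 2200 bp, where the median of the whole list of 31593 regions was 1000 bp. The mark covered a median of 76.4% of the annotated gene (quartiles 55.5 and 86.6), and in 54 members it covered at least 50% of the gene. Rpl10a, which encodes a large subunit protein, was covered from end to end (2562 of 2562 bp, chr17:28465416-28467977), and the cover reached 96.9% in Rpl23, 96.8% in Rpl23a and 92.3% in Rpl3. Rpl3 lies close to the site of peptide bond formation, and its 1 region of 5200 bp ran from 436 bp after the start to 10 bp beyond the end of the gene.

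The longest cover in base pairs came from the longer genes. Rps15a held 9200 bp of H3K36me3 in 2 regions, Rpl24 7600 bp in 7 regions, and Rpl5, whose protein joins the ribosome together with a small ribosomal RNA and Rpl11, 6400 bp in 2 regions. Rpl22 held 6180 bp, the paralogue Rpl7l1 5800 bp, Rps3, a protein at the entry of the messenger RNA, 5195 bp, Rpl3 5190 bp and Rps28 4800 bp. These lengths depended on the annotation. The Rpl24 gene of GENCODE vM1 spans 42639 bp and overlaps Pcnp, and its regions lay in separate groups between 813 bp and 41212 bp from the gene start. For Rps28, the transcript with the longest coding sequence was 1425 bp long, while the gene as annotated spanned 5536 bp and overlapped Kank3. Since 14 of the 75 members overlap another protein-coding gene, bins of 200 bp touching such a gene were left out as an alternative, after which 66 of 75 members still carried H3K36me3.

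**Figure D2:**
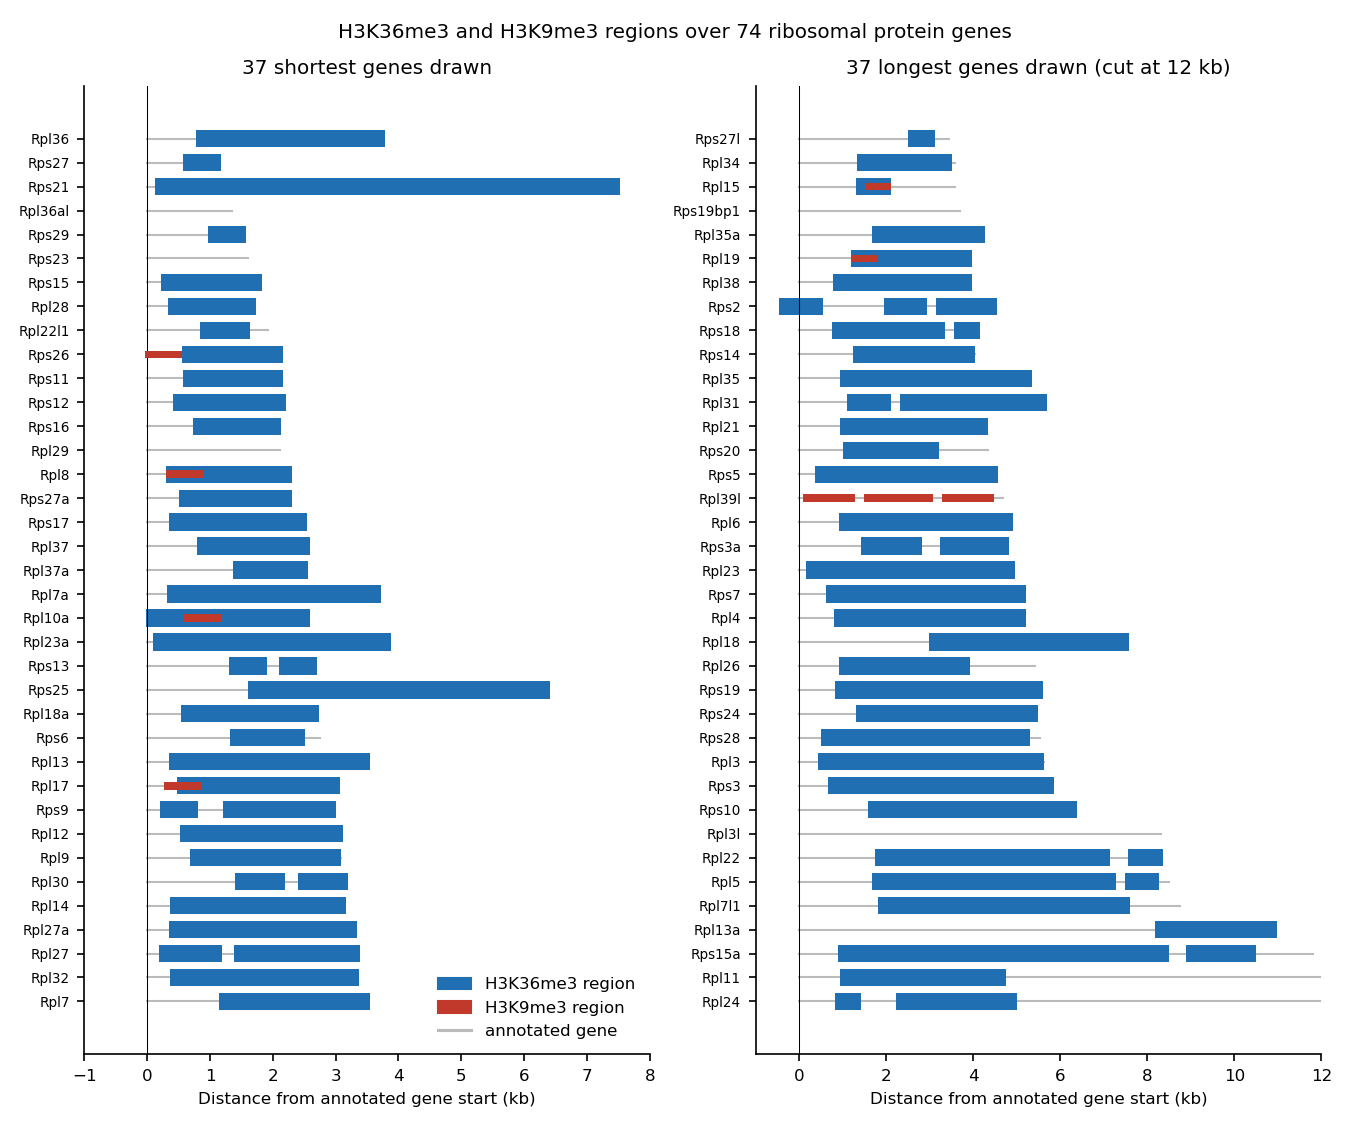
Regions over 74 of the 75 ribosomal protein genes, ordered by annotated length, against the distance from the annotated gene start (kb, in the direction of transcription). Blue bars are H3K36me3 regions, red bars H3K9me3 regions and grey lines the genes, cut at 12 kb. Blue bars begin after the start in most rows, 6 genes have none, and Rpl39l has 3 red bars and no blue bar.

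The shortest marked members show how far a list with a minimum width of 600 bp can resolve such genes. In Rpl36 (849 bp), only the last 66 bp lay in a region, which continued for 2934 bp beyond the gene over Lonp1, and whether the call belongs to Rpl36 or to its neighbour cannot be told apart. Rps27 (981 bp) had 408 bp of cover and Rps29 (1465 bp) had 492 bp, each from a region of 600 bp. Rps15 (1684 bp) was covered over 1459 bp. Rps21 (1069 bp) was covered over 950 bp, but its region of 7400 bp ran 6450 bp past the gene over Cables2. When at least 600 bp of the gene had to be covered, the number of members with H3K36me3 was 66.

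In transcripts of 2 to 6 kb, H3K36me3 began closer to the start in ribosomal protein genes than in other marked genes of the same length. For this comparison the transcript with the longest coding sequence was used, since the annotated gene start lay upstream of it in many members. How much each start is used was not measured. Among transcripts of 2 to 4 kb, the first region began a median of 522 bp after the start in 37 members (quartiles 340 and 908 bp) and 1435 bp after it in 412 other genes (quartiles 1013.5 and 1871 bp). The upper quartile of members thus lay below the lower quartile of other genes. Among transcripts of 4 to 6 kb the medians were 727.5 bp in 14 members and 1929 bp in 490 other genes, and the quartile ranges were again separate (463.5 to 995 bp and 1272.75 to 2831.25 bp). Under 2 kb the medians were 550 bp in 12 members and 808 bp in 74 other genes, and there the ranges overlapped (207.5 to 625.5 bp and 86 to 1230.25 bp). Between 6 and 10 kb the medians were 1659.5 bp in 4 members and 2542.5 bp in 890 other genes, with ranges that overlapped slightly. At 10 kb or more the medians were 12542.5 bp in 2 members (Rpl13a and Rpl24) and 7455 bp in other genes. The 2 members were measured in long transcripts of 13 and 11 exons, which do not start at the RefSeq starts. The RefSeq start of Rpl24 lay at its gene start, 813 bp before its first region. For Rpl13a the window of the RefSeq start was chr7:52384101-52384130, and the 5′ edge of its region was at 52383600. The value of these 2 members is therefore not a distance from their RefSeq starts. From the annotated gene start, the medians in that class were 921.5 bp in 4 members and 8241.5 bp in other genes. From that start the quartile ranges at 2 to 4 kb overlapped (340 to 1272.25 bp in members and 1082 to 1863 bp in other genes). The medians there were 532 and 1453 bp. At 4 to 6 kb the ranges from the gene start stayed separate (633 to 1058.5 bp and 1307.75 to 2924.75 bp). No test was run on these distances, which are steps of a 200 bp grid.

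**Figure D3:**
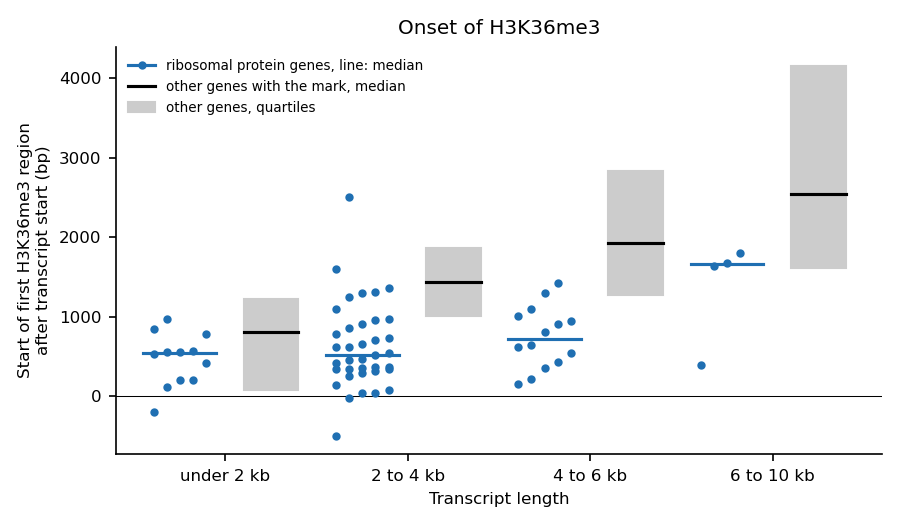
Distance (bp) from the start of the transcript to the first H3K36me3 region, by transcript length. Blue points are single ribosomal protein genes with their median as a line, and grey boxes are the quartiles of other genes with the mark, with the median in black. Medians were 522 and 1435 bp at 2 to 4 kb, and 727.5 and 1929 bp at 4 to 6 kb.

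Of the 69 marked members, 50 had their first region within 1 kb after the transcript start, 13 between 1 and 2 kb, and 3 later (Rpl24, Rpl13a and Rps27l). For Rpl24 and Rpl13a this holds for the long transcripts named above and not from their RefSeq starts. In the remaining 3 members the region began upstream of the transcript start (Rps14, Rps2 and Rpl10a). The region began before the second exon in 30 members and after it in 39, and over all 69 a median of 64 bp after the start of that exon. At the other end, the end of the transcript lay inside a region in 60 of 69 members, and the last region ended a median of 141 bp past the transcript over all 69. For transcripts of 2 to 4 kb this was the case in 34 of 37 members (91.9%) and in 285 of 412 other marked genes (69.2%), and for 4 to 6 kb in 13 of 14 members (92.9%) and 54.5% of other marked genes. Under 2 kb the order was reversed, with 10 of 12 members (83.3%) and 66 of 74 other marked genes (89.2%).

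The share of the transcript in a region was also higher in members below 10 kb. In marked transcripts of 2 to 4 kb a median of 80.5% of the transcript lay in a region in members (quartiles 68.8 and 87.3) and 44.0% in other genes (29.2 and 61.0). At 4 to 6 kb the medians were 86.2% (76.4 and 91.2) and 47.9% (26.7 and 67.3). Below 2 kb they were 71.0% (41.7 and 86.7) and 44.6% (28.4 and 89.0), so that the quartile range of members lay inside that of other genes. From 6 to 10 kb they were 75.3% (73.0 and 80.0) in 4 members and 46.3% (24.5 and 68.2). In the 2 members of 10 kb or more, the long transcripts of Rpl13a and Rpl24 that start away from their RefSeq starts, the median was 17.2%. In other genes of that class it was 22.7%.

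Counted as bins of 200 bp, 995 of the 1809 bins touching members were in the H3K36me3 list (55.0%, interval 52.7 to 57.3), beside 11.4% in other genes of the same length. Bins that touched an exon of the transcript with the longest coding sequence were marked in 61.9% of 725 cases. All other bins of the gene, in introns or outside that transcript, were marked in 50.4% of 1084 cases. The span of the transcript alone leaves out parts of the annotated gene before and after that transcript. On it the share in introns was 58.6% of 794 bins, and the difference from exons lay within the intervals (58.3 to 65.4 for exons and 55.1 to 61.9 for introns). Bins of 1 gene share reads and a region, so these intervals are narrower than the spread between genes.

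Along the gene, the share of marked bins rose from 23.0% in part 1 of 5 equal parts to 52.7% in part 2, 65.6% in part 3, 68.7% in part 4 and 66.9% in part 5. Other genes of the same length went from 1.94% in part 1 to 17.5% in parts 4 and 5. In absolute distance, for transcripts of 2 to 6 kb (54 members), 11.4% of bins were marked in the first 400 bp, 48.1% from 400 to 800 bp, 68.5% from 800 to 1200 bp and 87.0% from 1200 to 1600 bp (interval 79.4 to 92.1). The share then stayed between 80.9% and 92.2% up to 4000 bp. The 902 other genes of this size that carried H3K36me3 had 10.5% of bins marked from 400 to 800 bp and 35.8% from 1200 to 1600 bp, beside 51.0% and 92.2% in the 51 members that carried it.

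**Figure D4:**
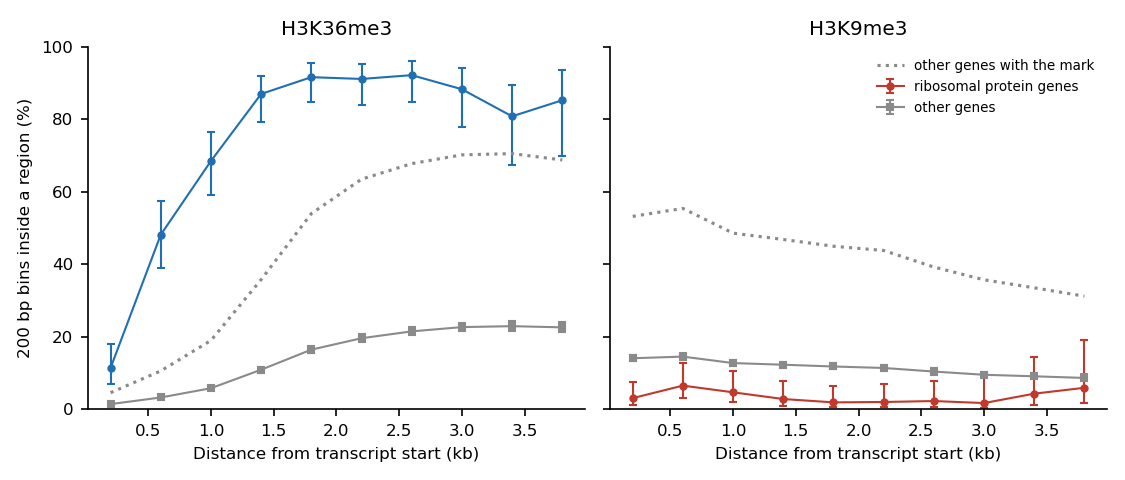
Share of 200 bp bins (%) inside an H3K36me3 region (left) or an H3K9me3 region (right) by distance from the transcript start (kb), for transcripts of 2 to 6 kb. Coloured lines are 54 ribosomal protein genes and solid grey lines 2967 other genes, both with 95% Wilson intervals over bins, and dotted lines are the other genes that carry the mark. H3K36me3 in members reached 87.0% of bins at 1200 to 1600 bp, where other marked genes had 35.8%.

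The 6 members without an H3K36me3 region were Rpl29, Rps23, Rpl36al, Rpl3l, Rpl39l and Rps19bp1, and all of these but Rpl39l lacked H3K9me3 as well, so that 5 members had neither mark. Only Rpl29 and Rps23 among them are genes for standard ribosomal proteins, so that 66 of the 68 members other than the paralogues and Rps19bp1 carried the mark (97.1%, interval 89.9 to 99.2). Rpl29 (chr9:106331785-106333899, 2115 bp) lay 1302 bp from the nearest H3K36me3 region, which covered Acy1. For Rps23 (chr13:91062727-91064329, 1603 bp), a protein of the decoding centre, the nearest H3K36me3 region used here was 818 kb away, and no region of either list used here lay within 450 kb of the gene on either side. Whether Rps23 itself lacks the marks therefore cannot be told apart from a gap of the lists around it, which bears on the counts of 66 of 68 and of 5 members with neither mark. Of the bins touching these genes, 1 of 12 in Rpl29 and 2 of 9 in Rps23 had more than 1 exact copy in the assembly.

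Some paralogues had other regions than the genes they are named after, and some did not. Among the 6 paralogues and Rps19bp1, 3 of 7 carried H3K36me3 (Rpl7l1, Rpl22l1 and Rps27l), where the interval of 15.8 to 74.95% held the 25.3% of other genes of the same length. Rpl3 had 5190 bp of H3K36me3, whereas Rpl3l, which is known from skeletal and heart muscle, had neither mark over its 8321 bp. Its closest H3K36me3 region lay 5174 bp away over Rps2 and Ndufb10. Rpl7 was covered over 66.1% and Rpl7l1 over 66.3% of the gene, so these differ little. Rpl22 was covered over 74.2% and Rpl22l1, which can take its place in cells lacking it, over 41.7% (800 bp). Rps27 and Rps27l each had 1 region of 600 bp, which began 573 bp and 2508 bp after the gene start, respectively. Rps19 was covered over 85.1%, and Rps19bp1 had no region of either mark. Rpl36al had none, and its X-linked counterpart Rpl36a had none either.

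**Figure D5:**
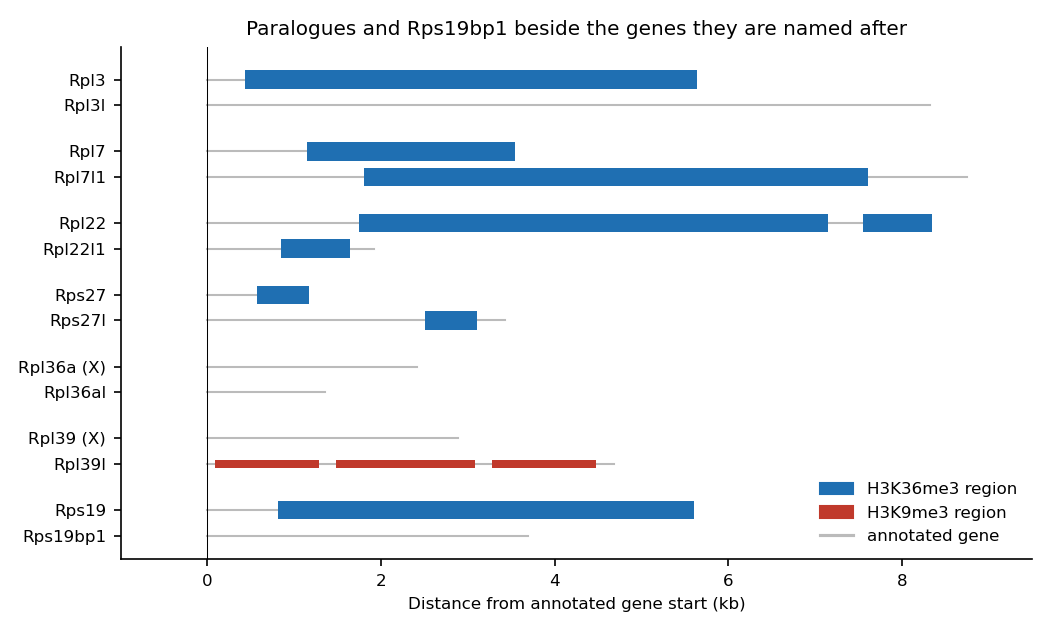
Regions over 6 paralogues and Rps19bp1, each drawn below the gene it is named after, against the distance from the annotated gene start (kb). Blue bars are H3K36me3 regions, red bars H3K9me3 regions and grey lines the genes, and X marks X-linked genes. Rpl3 holds 1 H3K36me3 region and Rpl3l none, and Rpl39l holds 3 H3K9me3 regions.

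H3K9me3 was rare over ribosomal protein genes. It overlapped 8 of 75 members (10.7%, interval 5.50 to 19.7), compared with 45.5% of other genes at all lengths and 25.6% of other genes of the same length, giving a ratio of 0.416. By length, 1 of 10 members below 2 kb had it beside 13.4% of other genes, 5 of 36 at 2 to 4 kb beside 24.1%, 1 of 20 at 4 to 6 kb beside 27.7%, 0 of 5 at 6 to 10 kb beside 30.3%, and 1 of 4 at 10 kb or more beside 54.0%. Of all bins touching members, 2.27% were in the H3K9me3 list (41 of 1809), beside 8.99% in other genes of the same length. A region of at least 1 kb was present in 1 member, Rpl39l.

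Rpl39l stood apart from the other members. The gene (chr16:10170319-10175004, 4686 bp, plus strand) encodes a paralogue of the X-linked Rpl39 that is known from male germ cells. Its 3 H3K9me3 regions of 1200, 1600 and 1200 bp covered 4000 bp, or 85.4% of the gene, from 82 bp to 4481 bp after the start, and they were separated by single bins of 200 bp. No bin of it was in the H3K36me3 list, and the nearest such region was 49.4 kb away. A stretch of 200 bases from within its first region, in an intron, is shown next to stretches from the H3K9me3 regions of Rpl8 and Rps26, with each CG in capitals, as the regions differed in base composition.
Rpl39l (chr16:10171001-10171200, plus strand): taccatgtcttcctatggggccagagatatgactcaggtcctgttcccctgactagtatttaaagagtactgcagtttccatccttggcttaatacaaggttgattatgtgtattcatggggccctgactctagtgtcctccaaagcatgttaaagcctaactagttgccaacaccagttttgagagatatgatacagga
Rpl8 (chr15:76735001-76735200, plus strand): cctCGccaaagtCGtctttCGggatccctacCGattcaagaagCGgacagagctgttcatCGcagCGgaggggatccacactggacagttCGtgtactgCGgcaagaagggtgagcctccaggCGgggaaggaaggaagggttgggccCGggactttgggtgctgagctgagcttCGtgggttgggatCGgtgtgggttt
Rps26 (chr10:128063201-128063400, minus strand): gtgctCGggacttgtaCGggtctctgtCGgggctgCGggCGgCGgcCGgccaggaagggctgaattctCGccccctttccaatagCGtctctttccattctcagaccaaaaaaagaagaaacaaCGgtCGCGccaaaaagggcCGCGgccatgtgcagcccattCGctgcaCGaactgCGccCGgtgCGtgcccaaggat

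The stretch from Rpl39l held 0 CG and 43.5% G+C, that from Rpl8 13 CG and 60% G+C, and that from Rps26 19 CG and 61.5% G+C. Over whole regions, CG occurred 0.313 to 1.33 times per 100 bases in the 3 regions of Rpl39l, and 7.17 times in both Rpl8 and Rps26, 5.17 times in Rpl17 and 4.50 times in Rpl10a. It was 2.00 per 100 bases in Rpl19, 1.00 in Rpl15 and 0.667 in Rpl11.

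The H3K9me3 regions of the 7 members other than Rpl39l all had the minimum width of 600 bp, which 43.3% of the H3K9me3 list also had. In Rpl8, a protein close to the peptidyl transferase centre, the region lay 300 to 899 bp after the annotated gene start and all 3 of its bins touched coding sequence. By the same measure it lay at 585 to 1184 bp in Rpl10a, 270 to 869 bp in Rpl17, 1177 to 1776 bp in Rpl19 and 1505 to 2104 bp in Rpl15. From the start of the coding transcript it lay at 963 to 1562 bp in Rpl19 and 740 to 1339 bp in Rpl15. In Rps26, whose protein sits at the exit of the messenger RNA, it ran from 38 bp before the start to 561 bp after it and met the H3K36me3 region that began at 562 bp. In Rpl11 it lay 18743 bp from the gene start, inside the annotated span of 25164 bp but beyond the 3663 bp of the transcript with the longest coding sequence, so it belongs to the member only by the long annotation.

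Both marks were present in 7 members (9.33%, interval 4.59 to 18.0), against 4.29% of other genes of the same length. These shares depend on H3K36me3 by itself, which lay in 92.0% of members and 27.0% of those other genes. Whether the marks met more often than their separate shares give was not tested. At least 1 bin was in both lists in 5 members, namely Rpl8, Rpl10a, Rpl15, Rpl17 and Rpl19 (6.67%, interval 2.88 to 14.7, against 2.53%). On the span of the transcript, which leaves out Rpl11, both marks were present in 6 members (8.00%, interval 3.72 to 16.4, against 3.85%), and the interval held the share of the other genes. In 4 of these 5 genes all 3 bins of the H3K9me3 region lay within H3K36me3, and in Rpl17 2 of 3 did. As the lists pooled WT and G34R cells, these bins may have been enriched in different genotypes, and this was not tested.

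Copies of the members elsewhere in the genome were counted because reads with many alignments were removed. The central 50 bases of a bin, counted over the transcript with the longest coding sequence, had more than 1 exact copy in 116 of 1519 bins (7.64%), beside 10.1% in other genes of the same length. The copies of members lay mainly in exons, with 88 of the 116 bins. In exons 12.1% of 725 bins had more than 1 copy (interval 9.96 to 14.7), beside 9.76% in other genes, while introns of members had 3.53% of 794 bins (2.45 to 5.05), beside 10.5%. H3K36me3 was listed in 60.3% of bins with 1 copy, 58.6% of bins with more than 1 copy and 42.6% of the 47 bins with more than 5 copies (interval 29.5 to 56.7). In other genes of the same length these were 13.4%, 4.97% and 1.51%.

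In 7 members a single unmarked bin of 200 bp divided the H3K36me3 cover, and in 4 of them (Rpl27, Rpl31, Rps2 and Rps18) the bin had more than 1 copy. The central 50 bases of these 4 bins, all in coding sequence, had 4 copies in Rpl27, 9 in Rpl31, 5 in Rps18 and 24 in Rps2. The paper limited multiple alignments with a setting of 5. The number of copies was above 5 in Rpl31 and Rps2 but not in Rpl27 and Rps18.
Rpl27 (chr11:101304876-101304925, plus strand): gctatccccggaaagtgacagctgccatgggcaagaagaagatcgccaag
Rpl31 (chr1:39426876-39426925, plus strand): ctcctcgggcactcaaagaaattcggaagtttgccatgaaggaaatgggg
Rps18 (chr17:34089476-34089525, minus strand): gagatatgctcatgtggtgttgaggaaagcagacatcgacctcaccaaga
Rps2 (chr17:24858076-24858125, plus strand): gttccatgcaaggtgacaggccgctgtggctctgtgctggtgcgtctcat

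The gaps of Rpl5, Rpl30 and Rps13 had 1 copy. Between the first and the last marked bin of the transcript, 66 of 912 bins with 1 copy were unmarked (7.24%, interval 5.73 to 9.10) and 7 of 75 bins with more copies (9.33%, interval 4.59 to 18.0). These 2 shares did not differ beyond counting error. Split by number of copies, 2 of 50 bins with 2 to 5 copies were unmarked (4%, interval 1.10 to 13.5). With more than 5 copies it was 5 of 25 bins (20%, interval 8.86 to 39.1). Most unmarked bins belonged to Rpl24. They lay in its transcript of 35110 bp, which starts 7529 bp after the gene start. The RefSeq start of Rpl24 lay at the gene start, so the shares above are largely those of this long transcript. Without Rpl24, a step chosen after its values were seen, 7 of 832 bins with 1 copy were unmarked (0.841%, interval 0.408 to 1.73). Of bins with more copies, 4 of 72 were unmarked (5.56%, interval 2.18 to 13.4). Of the latter, 2 of 50 bins with 2 to 5 copies were unmarked (4%, interval 1.10 to 13.5) and 2 of 22 with more than 5 (9.09%, interval 2.53 to 27.8). Whether removed reads made these gaps was not tested. Genes with -ps symbols, rarely overlapped either list. Of 132 such autosomal genes, 1 overlapped H3K36me3 (0.758%, interval 0.134 to 4.17) and 3 overlapped H3K9me3 (2.27%). These were Rpl14-ps1 with both marks, inside Trpm4, and Rpl18-ps1 and Rpl19-ps1 with H3K9me3, inside Ctla4 and C130026I21Rik. As the authors kept only bins in annotated genes, and these copies share sequence with their source, the low share cannot be set against that of the members.

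The annotated spans of members held 53 separate snoRNA loci, on either strand, in 26 genes. Among them were 5 in Rpl4, 4 each in Rpl7a and Rpl13a, and 3 each in Rpl5, Rpl17, Rpl23a and Rps12. Whether each locus lay in an intron was not checked. A snoRNA lay in 34.7% of members and in 0.713% of other genes of the same length. All 26 hosts carried H3K36me3, as did 43 of the 49 members without a snoRNA, beside 27.0% of other genes of the members' length. Of the 6 unmarked members, 4 were paralogues or Rps19bp1, none of which held a snoRNA. The median cover was 80.5% of the gene in hosts and 74.2% in the 43 others that carried the mark.

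Further ribosomal protein genes lay outside the rule by their name or chromosome. The 5 autosomal genes Rplp0, Rplp1, Rplp2, Rpsa and Fau all carried H3K36me3 and none carried H3K9me3. Rplp0, the scaffold of the acidic stalk, was covered over 83.0%, Rpsa over 100%, Rplp2 over 73.1% and Rplp1 over 40.6%. Fau, whose protein is made as a fusion with a ubiquitin-like domain, was covered over 56.4%. Of the 4 X-linked genes only Rps4x had a region (800 bp, 18.0% of the gene), and Rpl10, Rpl36a and Rpl39 had none. H3K36me3 overlapped 8.40% of the 821 multi-exon protein-coding genes of X, so that the X-linked genes stand beside a lower background. The single-exon gene Rpl10l, a paralogue of Rpl10 known from testis, had no H3K36me3 and 788 bp of H3K9me3 (77.2% of its 1021 bp).

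Other genes of the translation machinery were also rich in H3K36me3. Of 76 genes for mitochondrial ribosomal proteins (Mrpl and Mrps), 60 carried it (78.9%, interval 68.5 to 86.6), against 35.4% of other genes of their length, and 9 carried H3K9me3 (11.8% against 35.6%). Of 58 genes named Eif or Eef, mostly initiation and elongation factors but including the Argonaute genes under their older names Eif2c1 to Eif2c4, 53 carried H3K36me3 (91.4% against 40.4%) and 20 carried H3K9me3 (34.5%, interval 23.6 to 47.3, against 45.7%). Between 2 and 6 kb, H3K36me3 was present in 53 of 56 cytosolic and 19 of 24 mitochondrial ribosomal protein genes (94.6%, interval 85.4 to 98.2, and 79.2%, interval 59.5 to 90.8, which overlap). Of the 10 factor genes of this length, 9 carried H3K36me3 (90%) and 5 carried H3K9me3 (50%, interval 23.7 to 76.3), the latter beside 25.9% of other genes. For H3K9me3 the intervals of the factor genes held the share of other genes at this length and over all lengths. The position of the mark differed between the lists. In mitochondrial ribosomal protein genes of 2 to 4 kb it began a median of 1469 bp after the start (quartiles 967.25 and 1738.75 bp, 12 genes) and covered 41.1% of the transcript, close to the 1435 bp and 44.0% of other marked genes, where members had 522 bp and 80.5%. The few factor genes of this length lay close to the members in these measures, with medians of 532 bp and 76.5% in 5 marked transcripts of 2 to 4 kb and 444 bp and 84.8% in 5 of 4 to 6 kb. The end of the transcript, in contrast, lay in a region in only 2 of the 5 factor genes of 2 to 4 kb and in 4 of 5 of 4 to 6 kb.

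The labelled cell type was checked on the same lists. Of 12 ES cell markers, 11 carried H3K36me3 beside 39.8% of other genes, among them Pou5f1, Nanog and Sox2, and Dppa5a (1126 bp) had neither mark. H3K9me3 was present in 2 of the 12, Esrrb and Dnmt3b. None of the 5 fibroblast markers and none of the 3 muscle markers carried H3K36me3, and 4 of 5 and 3 of 3 carried H3K9me3, beside 45.5% of all other genes and 54.0% of those of 10 kb or more. Of the 3 neural markers, Tubb3 had 800 bp of H3K36me3, and Pax6 and Tubb3 carried H3K9me3.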

How the data were processed

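Per the labels and the study's methods, H3K9me3 and H3K36me3 libraries of WT and G34R ES cells (1 each) were aligned to mm9 with Bowtie 1.0.0 under a limit on multiple alignments, duplicates were removed, and reads were counted in 200 bp bins and scaled in SeqMonk. The authors kept bins in annotated genes above a high percentile in either genotype, joined neighbours with bedtools 2.20.1 and removed the most extreme regions. The deposited lists hold chromosome, start and end (31593 H3K36me3 and 32502 H3K9me3 regions), with no counts, so the depth is unknown.

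Regions were overlapped with GENCODE vM1 genes in Python 3.11.15 (numpy 2.4.6, pandas 2.3.3). Expected shares weight other genes over length classes (limits 2, 4, 6 and 10 kb) to the members. Exact copies of the central 50 bases of bins were counted on both strands. The overlap and copy routines recovered known answers in simulated input. The rule for members, though it reads no measured value, and the lists were chosen with earlier results of these data known. Genes were named for the longest or highest cover by either mark, for both marks or none, for short length with H3K36me3, and as paralogues. The gaps without Rpl24 and the sequences shown were chosen after values were seen. There were no replicates, so no p-value was computed. Alternatives were stricter overlap, wider regions, other length matching, transcript spans, shorter copy windows and other starts. The values of 1 member by itself are not reported here.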

Additional observations from a re-analysis of the deposited data

How the results depend on the processing

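No paired analysis was possible because each list pools WT and G34R cells and holds no values per sample. Of 54 alternatives, 35 left the value within its interval (for the distance, its quartiles) and 19 moved it. With regions of at least 1 kb, H3K36me3 was found in 82.7% of members (ratio 3.75, 51.8% of bins) and H3K9me3 in 1.33% (ratio 0.0875, 1.11% of bins), because most H3K9me3 regions of members have the minimum width. Without the paralogues and Rps19bp1, 97.1% carried H3K36me3. The H3K36me3 ratio was 3.64 on bins that touch no other protein-coding gene. It was 1.70 against other genes with at least 1 mark, where the H3K9me3 ratio was 0.199, and both fall by construction because the members were not limited in this way. On transcript spans, a choice made after seeing the data, 60.2% of bins had H3K36me3. In part 1 of 10 rather than 5 the share was 14.9%, and 29% with the starts of all protein-coding transcripts. With 28 in place of 50 bases, 14.1% of bins had more than 1 copy. The tract was found in 26.7% of members with 5 pyrimidines, in 4.00% exactly at GENCODE starts, and, with RefSeq starts added later, in 63.6% and 21.8% of 55 members, of which 3.64% had it exactly at GENCODE starts. The unknown depth and the minimum width of 600 bp limit what can be seen in genes below 2 kb, so absence from a list does not show that a mark was absent.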

Other observations

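The members were spread over 18 of the 19 autosomes, with 13 on chromosome 7, 8 on chromosome 17 and 7 on chromosome 11, and all 13 members of chromosome 7 carried H3K36me3 where 36.5% of other genes of that chromosome did. The 66 members below 6 kb had a median G+C content of 48.9% (quartiles 46.9 and 52.9) and the 3448 other genes below 6 kb had 50.2% (44.5 and 54.4).

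Both marks were present in 15 of 58 initiation and elongation factor genes (25.9%), against 14.4% of other genes of their length, and in 7 of 76 mitochondrial ribosomal protein genes (9.21% against 9.48%). H3K36me3 by itself lay in 91.4% and 78.9% of these lists, against 40.4% and 35.4%, and the shares with both marks depend on this. Eef2, which moves the ribosome along the messenger RNA, had 5652 bp of H3K36me3 (96.2% of the gene) and 1200 bp of H3K9me3. Eif4a1, the helicase of cap-dependent initiation, had 5163 bp (94.1%) and 800 bp. In 5 genes of the list H3K9me3 was present without H3K36me3. These were Eef1a2 (1119 bp), Eif5a2 (968 bp), Eif2c4 (2316 bp), Eif4e3 (7991 bp, or 1.95% of a gene of 409314 bp) and Eif4e1b (2000 bp, 44.8% of the gene). Eef2 and Eif4a1 were picked after their values were seen, and no test was run.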
